A study of Mus musculus with 8 samples.

Results

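Genes that cells switch on when oxygen runs short were followed in the ipsilateral hemisphere of mice after permanent middle cerebral artery occlusion (PMCAO), with and without the neuropeptide PACAP38. The 10 genes were *Vegfa*, *Adm*, *Hif1a*, *Egln3*, *Bnip3*, *Ddit4*, *Pdk1*, *Hk2*, *Ldha* and *Pfkfb3*. They were found by their gene names on the array, which gave 16 of the 41174 probes. All 10 had at least 1 probe, *Vegfa* and *Pfkfb3* had 3 each, and *Ldha* and *Pdk1* had 2 each. A gene with several probes is described by the probe with the highest mean signal, and its other probes are given beside it.

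The mice were male C57BL/6J animals aged 8 to 12 weeks by the labels. PMCAO was made by a filament in the artery on the right side, and sham mice had the artery exposed only. Either 1 pmol PACAP38 in 1 μL or 1 μL of 0.9% saline was injected into the cerebral ventricle, and the right hemisphere was taken 6 h or 24 h later. The paper states that the olfactory bulb and cerebellum were not part of it. The labels and methods name 8 groups, which are sham plus saline, sham plus PACAP38, PMCAO plus saline and PMCAO plus PACAP38 at each time. Each group was 1 pool of RNA from 3 mice, and PMCAO mice were chosen by their neurological grade. Lesioned and spared tissue were thus measured together. Each of the 8 two-colour arrays held a PACAP38 pool against the saline pool of the same surgery and time, and the dyes were exchanged on the second array, so the 2 arrays are technical replicates of 1 pair of pools. No value below carries an error between mice, and ± gives the distance of each of the 2 arrays from their mean. One slide carried all arrays of 6 h and a second slide all arrays of 24 h, so time and slide cannot be told apart.

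When oxygen is plentiful, prolyl hydroxylases such as the product of *Egln3* mark the alpha subunits of hypoxia-inducible factor (HIF) for destruction. When oxygen falls, the alpha subunit (*Hif1a*) is spared, joins ARNT and binds a short DNA motif, the hypoxia response element, near its target genes. The targets bring blood (*Vegfa* for new vessels, *Adm* for the vasodilator adrenomedullin), shift energy supply to glycolysis (*Hk2*, *Pfkfb3*, *Ldha*, *Pdk1*), clear mitochondria (*Bnip3*) and restrain growth through mTORC1 (*Ddit4*). The response is known to be switched on in the poorly perfused tissue around an infarct.

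The core of the hypoxia response element was looked for in the promoters that RefSeq gives on the mouse build GRCm38.p6, from 250 bases before to 50 bases after each start. The letters ACGTG and GCGTG were searched on both strands. The palindrome CACGTG holds the first motif on both strands. Either motif was present for 10 of the 10 genes, in 12 of their 14 windows, and in 43.8% of all 32851 windows. ACGTG alone was present for 8 of the 10 genes and in 19.6% of all windows. By gene, 46.7% of 27025 genes had a window with either motif and 21.8% had one with ACGTG. The promoter windows are shown because the genes are grouped by this factor. For each gene a stretch of 30 bases before the start is printed from 5′ to 3′ on the strand of the gene, with the motif in capitals, taking the ACGTG nearest to the start or, where there was none, the nearest GCGTG whose letters end before the start. A motif that lies on the other strand appears as CACGT or CACGC.
*Vegfa*, 211 bases before one of 2 starts: ggagtgcgtgccCACGTcagagagcaacat
*Adm*, 54 bases before the start: ggcaaatctgacCACGCccaccgtccgccc
*Hif1a*, 70 bases before the start: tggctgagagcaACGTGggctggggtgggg
*Egln3*, 229 bases before the start: tgtgcatctcagACGTGagatccaggtttt
*Bnip3*, 107 bases before the start: cgcacgcgccgcACGTGccacacgctcccc
*Ddit4*, 187 bases before the start: agaacgttgcgaACGTGcgcccggtgccta
*Pdk1*, 78 bases before the start: ccgcctacatggGCGTGtctttaaccaggg
*Hk2*, 52 bases before the start: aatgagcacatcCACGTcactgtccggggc
*Ldha*, 34 bases before the start: cgtgggttcccgCACGTccgctgggctccc
*Pfkfb3*, 52 bases before one of 2 starts: acccttctctccACGTGaaagggggctggg

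The windows lie at chr17:46025357-46025386 on the minus strand for *Vegfa*, chr7:110627591-110627620 on the plus strand for *Adm*, chr12:73907785-73907814 on the plus strand for *Hif1a*, chr12:54204086-54204115 on the minus strand for *Egln3* and chr7:138909596-138909625 on the minus strand for *Bnip3*. Those of *Ddit4* (chr10:59951940-59951969, minus strand), *Pdk1* (chr2:71873134-71873163, plus strand), *Hk2* (chr6:82774489-82774518, minus strand), *Ldha* (chr7:46845758-46845787, plus strand) and *Pfkfb3* (chr2:11502125-11502154, minus strand) complete the set. *Adm* and *Pdk1* held only GCGTG in these windows. *Ldha* and *Pdk1* also have a second start, and their printed stretches lie before the first. The first *Vegfa* window and the second *Pdk1* window held neither motif. A match in the letters is a description of the window, and no binding was measured.

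Between 62.1% and 76.0% of the spots, controls left out, were well above background in a channel. Of the 16 probes of these genes, 14 were so in every channel. The second array of sham at 6 h stood apart. The software marked 10.7% of its spots as outliers, against 0.323% to 3.09% on the other arrays, and its signals correlated at 0.869 and 0.879 with the arrays of its slide, on average, against 0.978 to 0.992 among the other arrays of a slide. The ratio of PACAP38 over saline is read within an array. PMCAO over sham is read between arrays, as the log2 processed signal minus the 75th percentile of its channel, with the same dye on both sides. Its values at 6 h therefore rest on that array and are given with and without it. The response to PMCAO itself was checked on genes known to rise in ischemic brain. In the saline pools on the first arrays, PMCAO over sham at 6 h was 1.02 on the log2 scale for *Fos*, 2.99 for *Hspa1a*, 4.14 for *Atf3* and 1.51 for *Hmox1*. With the second arrays included it was 0.53, 2.99, 4.34 and 1.56, so that *Fos* no longer passed 1.5-fold. At 24 h, over both arrays, it was 1.52, 3.06, 4.35 and 3.21. The fifth check gene, *Il6*, was not well above background in every comparison, and its log2 difference was 1.29 at 6 h on the first arrays, 0.53 over both and 6.27 at 24 h.

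At 24 h after PMCAO, 9 of the 10 genes had less transcript in the PACAP38 pool than in the saline pool, and 6 lay below 0.75-fold: *Adm*, *Pfkfb3*, *Egln3*, *Hk2*, *Ldha* and *Vegfa*. No gene lay above 1.5-fold, and the median log2 ratio was -0.53. Over all probes of this comparison with values on both arrays, 8.18% lay below 0.75-fold and 2.99% above 1.5-fold, and among probes well above background 7.07% and 1.47%. The median over all probes was 0. All 6 genes were below 0 on both arrays, and 3 of them (*Adm*, *Egln3* and *Pfkfb3*) were below 0.75-fold on each array. A count of 1.5-fold in both directions also gave 3, and the first array alone gave 3, whereas the second alone gave 7. In the remaining comparisons no gene passed either threshold. The background in PMCAO at 6 h was 5.41% of all probes above and 6.9% below, or 3.49% and 3.4% of those well above background. For sham it was 3.98% and 7.48% (1.38% and 2.7%) at 6 h, and 1.75% and 3.87% (0.218% and 1.34%) at 24 h. The median ratio of the genes was 0.11 in PMCAO and 0.06 in sham at 6 h, and -0.01 for sham at 24 h.

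**Figure D1:**
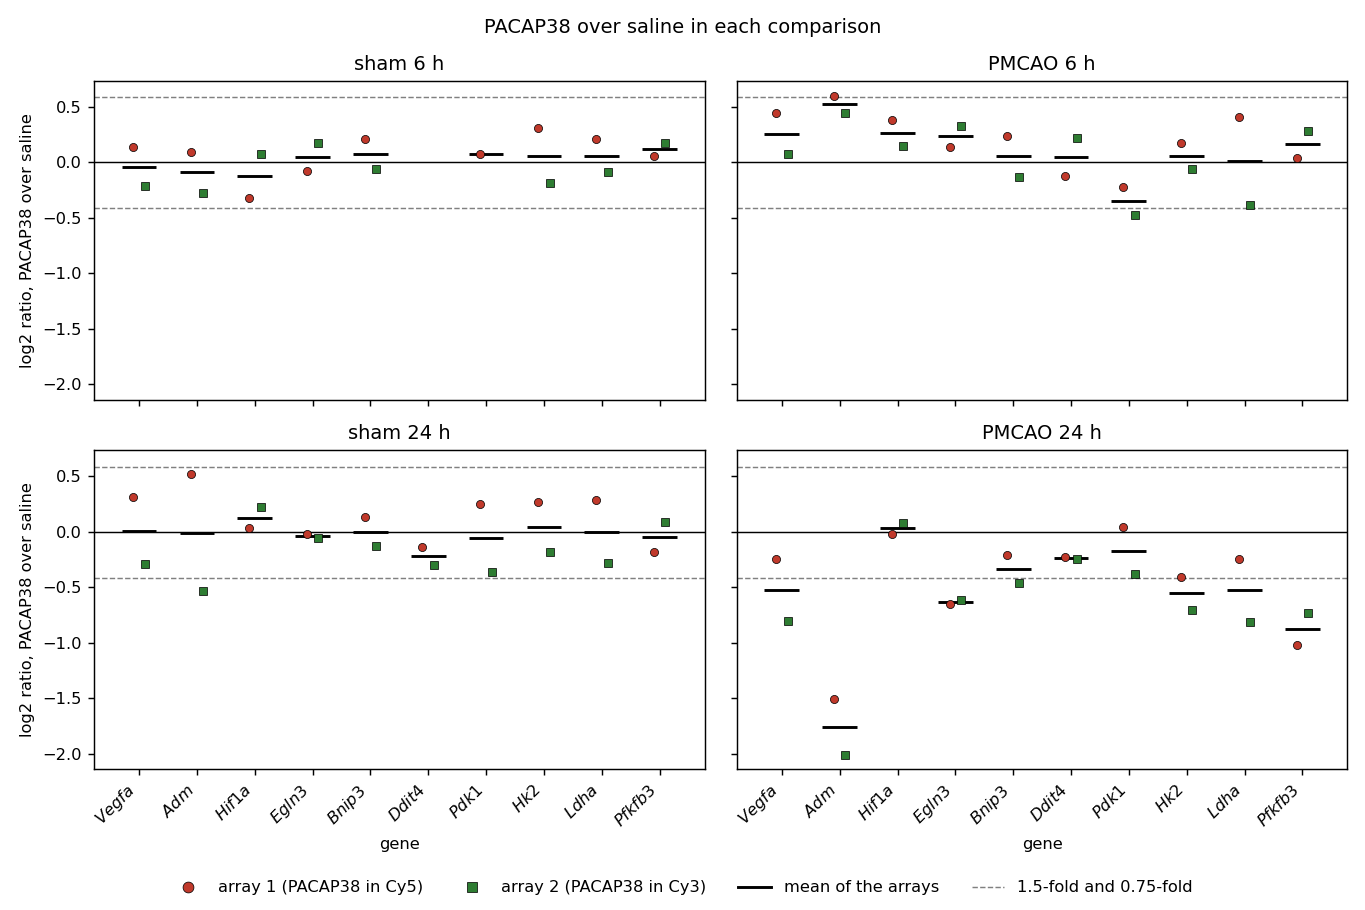
Log2 ratio of PACAP38 over saline (vertical axis) for each gene (horizontal axis) in the 4 comparisons, with a circle for the first array, a square for the dye-swapped array, a bar for their mean and dashed lines at 1.5-fold and 0.75-fold. Bars of 6 genes lie below the lower line in PMCAO at 24 h, from -0.53 for *Vegfa* to -1.76 for *Adm*, and none passes a line in the other panels.

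In the saline pools at 24 h, PMCAO over sham was above 1.5-fold for 4 of the 10 genes (*Adm*, *Hk2*, *Ddit4* and *Egln3*), with a background of 9.56% of all probes above and 13.3% below 0.75-fold (8.94% and 12.9% of those well above background). The median log2 difference of the 10 genes was 0.49 and that of all probes 0.02. In the PACAP38 pools at 24 h it was above 1.5-fold for *Adm* and *Ddit4*, with a background of 6.39% above and 8.19% below (4.88% and 6.3%), and the median of the 10 genes was 0.07. No gene was below 0.75-fold in either pair. Both pairs share arrays with the ratio of PACAP38 over saline, so these values restate the same signals and are not a second measurement.

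At 6 h the count of PMCAO over sham depended on the second sham array. Over both arrays, 0 of 9 genes lay above 1.5-fold and 4 below 0.75-fold in the saline pools (*Hif1a*, *Ldha*, *Egln3* and *Bnip3*), with a background of 19.5% above and 34.9% below (20.8% and 39.7% of those well above background). In the PACAP38 pools 2 lay above (*Vegfa* and *Adm*) and the same 4 below, with a background of 17% and 30.6% (17% and 38.1%). On the first array of each group alone, 1 lay above (*Adm*) and 1 below (*Hif1a*) in the saline pools, with a background of 17.2% and 16.9% (15.3% and 19.5%), and 1 above (*Adm*) and 0 below in the PACAP38 pools, with a background of 17.9% and 10.2% (13.9% and 11.2%). *Ddit4* has no value here, since its spot was marked as an outlier on both sham arrays of 6 h.

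**Figure D2:**
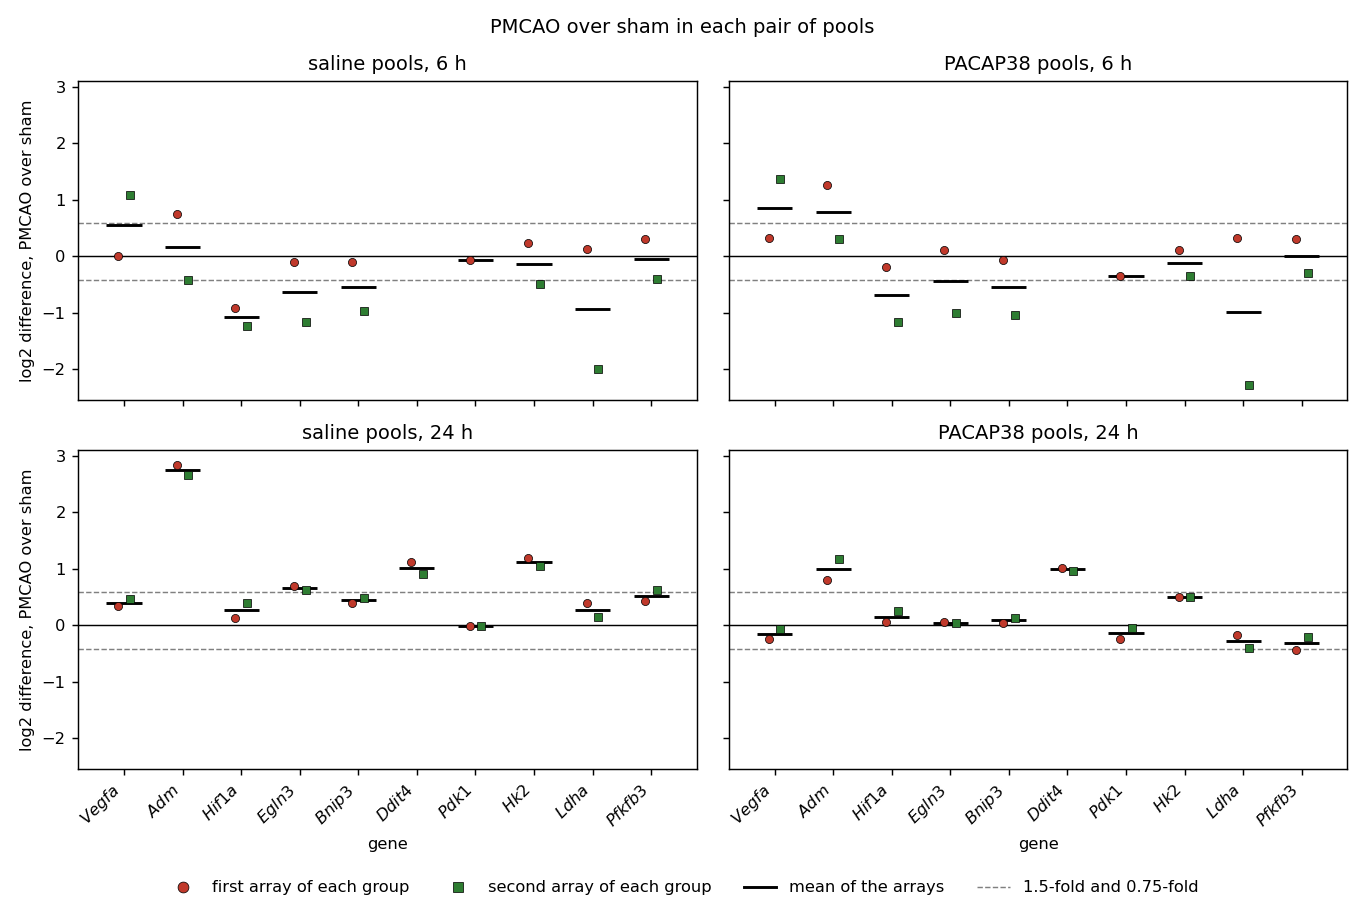
Log2 difference of PMCAO over sham (vertical axis) for each gene (horizontal axis) in the saline and PACAP38 pools at 6 h and 24 h, with a circle for the first arrays, a square for the second arrays, a bar for their mean and dashed lines at 1.5-fold and 0.75-fold. Circles and squares lie close together at 24 h and far apart at 6 h, as for *Ldha* in the PACAP38 pools at 0.33 and -2.29.

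Of the secreted factors, *Adm* showed the widest range over the pools. Its log2 level at 24 h, relative to the 75th percentile of its channel, was -1.94 in sham with saline, -1.95 in sham with PACAP38, 0.82 in PMCAO with saline and -0.95 in PMCAO with PACAP38. The PMCAO saline pool stood highest of all 8 pools, and the channels of the 2 PMCAO pools did not overlap with each other or with sham. PMCAO over sham was 6.75-fold in the saline pools (2.75 ± 0.09 on the log2 scale) and 1.99-fold in the PACAP38 pools (0.99 ± 0.19). PACAP38 over saline was 0.296-fold in PMCAO (-1.76 ± 0.25, with -1.50 and -2.01 on the arrays) and 0.993-fold in sham. In sham the arrays gave 0.52 and -0.54, opposite signs that cancel in the mean of a dye swap.

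At 6 h the *Adm* level was -0.50 in PMCAO with saline and 0.03 in PMCAO with PACAP38. PACAP38 over saline was 1.44-fold there (0.52 ± 0.08), higher on both arrays and short of 1.5-fold. The sham arrays of 6 h disagreed, with levels of -1.43 and 0.11 in the saline pool. PMCAO over sham in the saline pools was 0.17 over both arrays and 0.75 on the first alone, and in the PACAP38 pools 0.79 and 1.27.

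*Vegfa*, the chief growth factor of blood vessels, was read by 3 probes. The brightest gave log2 levels at 24 h of 0.91 and 0.92 in sham with saline and PACAP38, 1.31 in PMCAO with saline and 0.77 in PMCAO with PACAP38. Here the channels of the PMCAO saline pool (1.1 and 1.53) and of the sham saline pool (0.76 and 1.07) lay next to each other without overlap. PACAP38 over saline in PMCAO at 24 h was 0.694-fold by this probe (-0.53 ± 0.28), 0.439-fold by the probe printed at several places on the array (-1.19 ± 0.16) and 0.549-fold by the dimmest (-0.86 ± 0.06). All 3 probes were lower on both arrays. The repeated probe gave 0.43-fold to 0.455-fold over 9 spots. PMCAO over sham in the saline pools at 24 h was 1.32-fold, 1.92-fold and 1.95-fold by the 3 probes, and in the PACAP38 pools 0.901-fold, 0.84-fold and 0.937-fold. The brightest probe did not pass 1.5-fold in the saline pools, whereas the other 2 did.

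In PMCAO at 6 h, PACAP38 over saline for *Vegfa* was 1.19-fold, 1.45-fold and 1.22-fold by the 3 probes, each above 1 on both arrays and none above 1.5-fold. The repeated probe spanned 1.35-fold to 1.55-fold over 10 spots. In the sham comparisons the 3 probes lay between 0.974-fold and 1.13-fold. PMCAO over sham at 6 h differed by probe and array. The brightest probe gave 0.54 on the log2 scale in the saline pools over both arrays but 0.01 on the first, the repeated probe -0.32 and 0.17, and the dimmest 1.19 and 0.81.

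Among the regulators, *Hif1a* itself was not among the genes that differed with PACAP38. Its level at 24 h was 0.48 and 0.60 in sham with saline and PACAP38, and 0.74 and 0.76 in PMCAO. PACAP38 over saline at 24 h was 1.02-fold in PMCAO (0.03 ± 0.05) and 1.09-fold in sham, and at 6 h 1.2-fold and 0.918-fold. PMCAO over sham at 24 h was 1.2-fold and 1.11-fold. At 6 h it was 0.473-fold in the saline pools and 0.531-fold on the first array alone, and in the PACAP38 pools 0.623-fold and 0.871-fold. The lower level in the saline pools was thus seen on both arrays, and the call in the PACAP38 pools was lost without the second sham array. HIF-1 alpha is known to be controlled mostly at the protein level, which the arrays do not measure.

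*Egln3*, the oxygen sensor that HIF itself induces, had closely matching arrays at 24 h. The level was -2.03 and -2.07 in sham with saline and PACAP38, -1.37 in PMCAO with saline and -2.02 in PMCAO with PACAP38. The PMCAO saline pool stood apart and the other 3 pools overlapped. PMCAO over sham was 1.58-fold (0.66 ± 0.04) in the saline pools and 1.03-fold (0.05 ± 0.00) in the PACAP38 pools. PACAP38 over saline was 0.644-fold in PMCAO (-0.63 ± 0.02), 0.973-fold in sham, and at 6 h 1.18-fold in PMCAO and 1.03-fold in sham. At 6 h PMCAO over sham in the saline pools was 0.642-fold over both arrays and 0.926-fold on the first alone.

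Of the glycolytic enzymes, *Hk2* encodes the inducible hexokinase that traps glucose in the cell. Its level at 24 h was -0.04 and -0.00 in sham with saline and PACAP38, 1.08 in PMCAO with saline and 0.51 in PMCAO with PACAP38. The channels of both PMCAO pools were above those of sham and did not overlap with each other. PMCAO over sham was 2.18-fold (1.12 ± 0.08) in the saline pools and 1.42-fold (0.51 ± 0.00) in the PACAP38 pools. With PACAP38 it was 0.679-fold of saline in PMCAO (-0.56 ± 0.15) and 1.03-fold in sham. At 6 h it was 1.04-fold in both surgeries, and PMCAO over sham lay between -0.13 and 0.23 on the log2 scale with and without the second sham array.

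*Pfkfb3* makes the allosteric activator of phosphofructokinase and so sets the pace of glycolysis. The level at 24 h by the brightest probe was 2.39 and 2.35 in sham with saline and PACAP38, 2.92 in PMCAO with saline and 2.03 in PMCAO with PACAP38. The PACAP38 pool of PMCAO was the lowest of the 8 pools. PACAP38 over saline was 0.544-fold in PMCAO (-0.88 ± 0.14) by this probe, and 0.542-fold and 0.449-fold by the other probes. PMCAO over sham by the brightest probe was 1.44-fold in the saline pools and 0.801-fold in the PACAP38 pools. At 6 h PACAP38 over saline in PMCAO was 1.12-fold by the brightest probe and 1.33-fold and 1.68-fold by the other probes. The probe with 1.68-fold was well above background in the saline pool on 1 of its 2 arrays. Both dim probes were not well above background in sham with saline at 6 h, so PMCAO over sham is not given for them there. At 24 h the dim probes gave 1.3-fold and 2.11-fold in the saline pools and 0.711-fold and 0.897-fold in the PACAP38 pools. The first of them had arrays on opposite sides of 0 in both pairs, at 1.09 and -0.33 and at 0.15 and -1.13 on the log2 scale.

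*Ldha*, the lactate dehydrogenase subunit that favours lactate, had a level at 24 h of 5.58 in both sham pools, 5.85 in PMCAO with saline and 5.30 in PMCAO with PACAP38. The arrays of the PACAP38 pool gave 5.52 and 5.08, and those of the sham saline pool 5.39 and 5.76, which overlap. PACAP38 over saline in PMCAO was 0.692-fold (-0.53 ± 0.28), with -0.25 and -0.81 on the arrays, and 0.718-fold by the other probe. At 6 h the 2 probes opposed each other in PMCAO over sham. The brighter gave 0.521-fold in the saline pools and 0.506-fold in the PACAP38 pools, and 1.09-fold and 1.25-fold on the first array alone. The dimmer gave 3.17-fold and 3.12-fold, but had a value on the second arrays only. Both of these departures came with the second sham array, on which the brighter probe read 7.66 in the saline pool against 5.30 on the first, and the dimmer 2.56 against 3.76.

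*Pdk1* encodes a kinase that keeps pyruvate out of the mitochondria. The ratio with PACAP38 was 0.887-fold in PMCAO and 0.962-fold in sham at 24 h by the brighter probe, and 1.04-fold and 1.01-fold by the dimmer. In PMCAO at 6 h the brighter gave 0.783-fold (-0.35 ± 0.13), lower on both arrays, and the dimmer 1.09-fold. PMCAO over sham in the saline pools at 24 h was 0.992-fold and 1.31-fold by the 2 probes. At 6 h the dimmer gave 0.733-fold in the saline pools over both arrays and 0.988-fold on the first alone. No *Pdk1* value at 24 h passed a threshold by either probe.

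*Bnip3* encodes a receptor for the removal of mitochondria. Its level at 24 h was 3.48 in both sham pools, 3.93 in PMCAO with saline and 3.57 in PMCAO with PACAP38. PMCAO over sham was 1.36-fold in the saline pools and 1.07-fold in the PACAP38 pools, and PACAP38 over saline in PMCAO was 0.79-fold (-0.34 ± 0.13). The value was lower on both arrays and did not reach 0.75-fold.

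*Ddit4* encodes a restraint on mTORC1 that rises under many stresses. Its level at 24 h was 4.17 and 3.95 in sham with saline and PACAP38, and 5.19 and 4.94 in PMCAO. All channels of PMCAO were above all those of sham. PMCAO over sham was 2.03-fold (1.02 ± 0.11) in the saline pools and 1.99-fold (0.99 ± 0.03) in the PACAP38 pools. The PACAP38 ratio was 0.85-fold in PMCAO and 0.858-fold in sham. At 6 h the level was 5.5 and 5.55 in PMCAO with saline and PACAP38, a ratio of 1.03-fold. With the outlier spots of sham kept, PMCAO over sham at 6 h was 0.83 on the log2 scale in the saline pools and 0.76 in the PACAP38 pools.

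**Figure D3:**
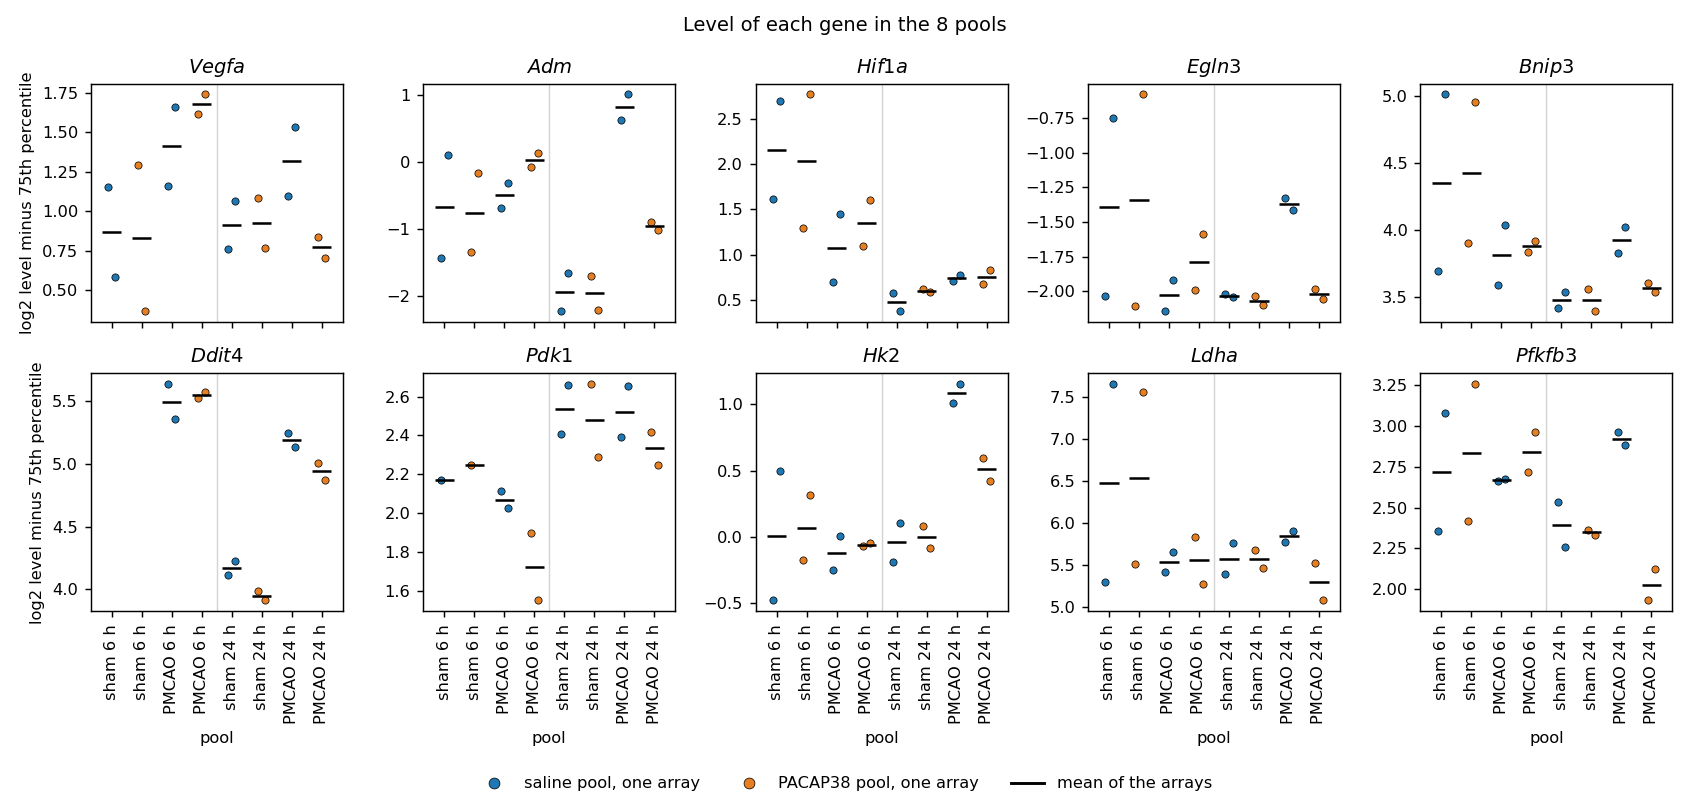
Log2 level relative to the 75th percentile of the channel (vertical axis) of each gene in the 8 pools (horizontal axis), with the first array on the left and the second on the right of each pool, saline in blue, PACAP38 in orange and a bar for the mean. The saline pool of PMCAO at 24 h is the highest of all pools for *Adm* (0.82), *Hk2* (1.08) and *Pfkfb3* (2.92), and the 2 sham arrays of 6 h lie far apart for most genes.

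Across the 4 pairs of pools, tests over all 36121 probes with values throughout called none of these genes. limma with Benjamini-Hochberg adjustment gave 0 probes (0%) for the mean of PACAP38 over saline, with 1782 at an unadjusted p under 0.05, and the lowest adjusted p among 13 probes of 9 of the genes was 0.875. For the mean of PMCAO over sham it gave 0 probes (0%), with 3097 unadjusted, and a lowest adjusted p among the genes of 0.542. For the difference of the PACAP38 ratio between PMCAO and sham it gave 0 probes (0%), with 2337 unadjusted, and a lowest adjusted p of 0.796. These tests took only probes with a value on all 8 arrays, which left out *Ddit4*, the brighter *Pdk1* probe and the dimmer *Ldha* probe. For *Adm* the difference between PMCAO and sham was -0.57 with a standard error of 0.97 (limma adjusted p = 0.896), since the ratio was above 0 at 6 h and below 0 at 24 h. On simulated data the tests recovered 66, 0 and 0 of 200 probes changed by 1 on the log2 scale and 150, 139 and 0 of 200 changed by 2. The simulated noise was independent between the 4 pairs of pools. In the fit of PMCAO over sham the real pairs of one time were correlated at 0.696. The 139 of 200 therefore does not carry over to the real data.

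**Figure D4:**
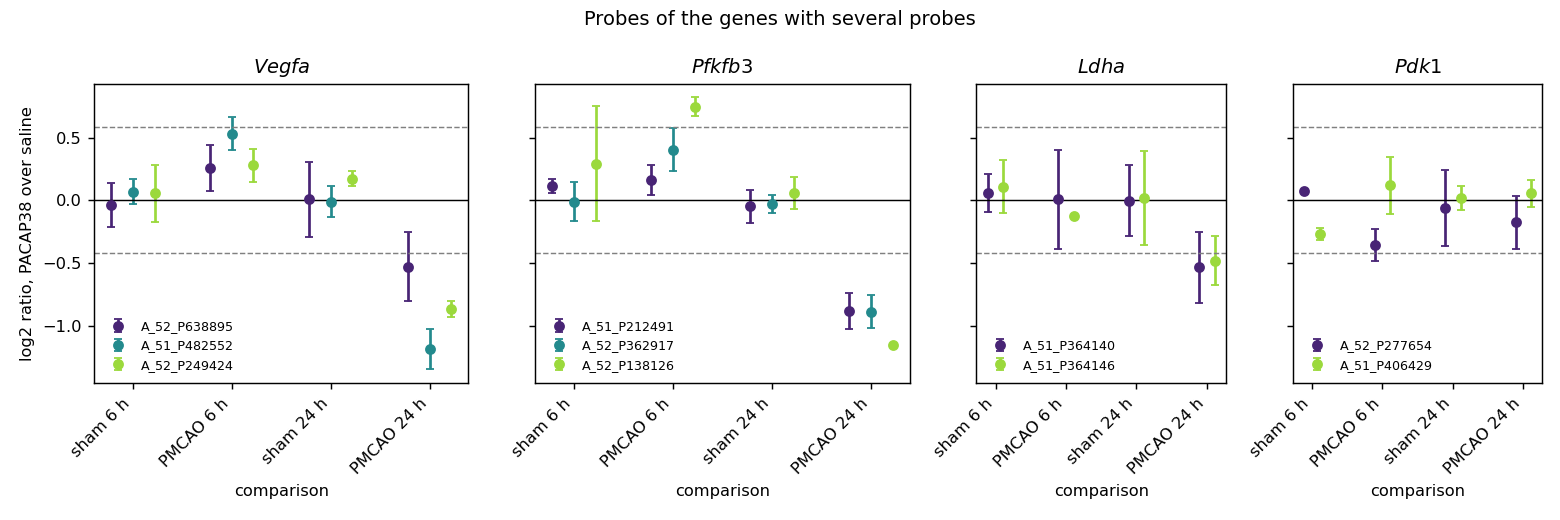
Log2 ratio of PACAP38 over saline (vertical axis) in the 4 comparisons (horizontal axis) for every probe of the genes with several probes, with bars for the distance of each array from the mean and dashed lines at 1.5-fold and 0.75-fold. All probes of *Vegfa*, *Pfkfb3* and *Ldha* lie below the lower line in PMCAO at 24 h, from -0.48 to -1.19, while the *Pdk1* probes give -0.17 and 0.06.

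Lists of the wider pathway showed where else such values lay. The counts stand beside a background of probes well above background. For PACAP38 over saline in PMCAO at 24 h, 7.07% of these lay below 0.75-fold and 1.47% above 1.5-fold. For PMCAO over sham at 24 h, 8.94% lay above and 12.9% below in the saline pools. In the PACAP38 pools the shares were 4.88% and 6.3%. Of the HIF subunits and oxygen sensors, 11 of 11 genes were well above background, and in PMCAO at 24 h only *Egln3* lay below 0.75-fold with PACAP38 and none above 1.5-fold. The median of this list was 0.02, near that of all probes. *Arnt*, the partner of the alpha subunits, had a log2 ratio of 0.02 there, and *Hif3a*, an alpha subunit with a weak activating domain, 0.01. By PMCAO over sham in the saline pools at 24 h only *Egln3* passed 1.5-fold in this list, and *Hif3a* gave 0.19.

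Of the secreted factors of the hypoxia response, 11 of 13 genes were well above background, and *Epo* was so in no channel. In PMCAO at 24 h, 8 of the 11 lay below 0.75-fold with PACAP38, *Vegfa* and *Adm* among them, and 0 above, with a median of -0.75. By PMCAO over sham at 24 h, 7 of 11 lay above 1.5-fold in the saline pools (median 2.30) and 7 of 11 in the PACAP38 pools (median 0.80). *Vegfc*, a growth factor of lymphatic vessels, had -0.49 in the saline pools and -0.27 in the PACAP38 pools, with a PACAP38 ratio of 0.25. In PMCAO at 6 h, *Pgf*, placental growth factor, lay below 0.75-fold with PACAP38.

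Of the receptors of VEGF and adrenomedullin, 8 of 9 genes were well above background and 1 (*Flt1*, a VEGF receptor, -0.47) lay below 0.75-fold with PACAP38 in PMCAO at 24 h. *Kdr*, the main signalling receptor of VEGF on endothelium, had a PACAP38 ratio of -0.25 there and a PMCAO over sham difference of -0.47 in the saline pools. *Ramp1*, a partner protein of the adrenomedullin receptor family, had -0.05 and 0.13. The list median was -0.11.

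Of glucose uptake, glycolysis and its pyruvate branch, 28 of 28 genes were well above background. In PMCAO at 24 h, 4 of 28 lay below 0.75-fold with PACAP38 (*Slc16a3*, *Pfkfb3*, *Hk2* and *Ldha*), 3 of which are among the 10 genes, and 0 above, with a median of -0.14. By PMCAO over sham at 24 h, 4 lay above 1.5-fold in the saline pools and 1 in the PACAP38 pools. *Slc16a3*, the lactate exporter of glycolytic cells, had 1.93 in the saline pools, 0.51 in the PACAP38 pools and a PACAP38 ratio of -1.50. *Slc2a1*, the glucose transporter of the blood-brain barrier, had 0.67 and 0.50 and a ratio of -0.13.

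Of mitophagy, growth restraint and other hypoxia targets, 19 of 19 genes were well above background, with 3 below 0.75-fold and 1 above 1.5-fold with PACAP38 in PMCAO at 24 h and a median of -0.24. *Hmox1*, the heme-degrading enzyme, had a ratio of -1.24 and a PMCAO over sham difference of 3.21 in the saline pools and 2.11 in the PACAP38 pools. *Ddit4l*, the relative of *Ddit4*, went the other way, with a ratio of 0.81 and differences of -0.84 and -0.17. Of the mTORC1 switch below *Ddit4*, 0 of 7 genes passed a threshold with PACAP38 in PMCAO at 24 h. *Eif4ebp1*, a repressor of translation, had a ratio of -0.29 there and a PMCAO over sham difference of 1.02 in the saline pools, *Rps6kb1*, a kinase below mTORC1, 0.11 and -0.10, and *Rptor*, its scaffold, 0.21 and 0.18.

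**Figure D5:**
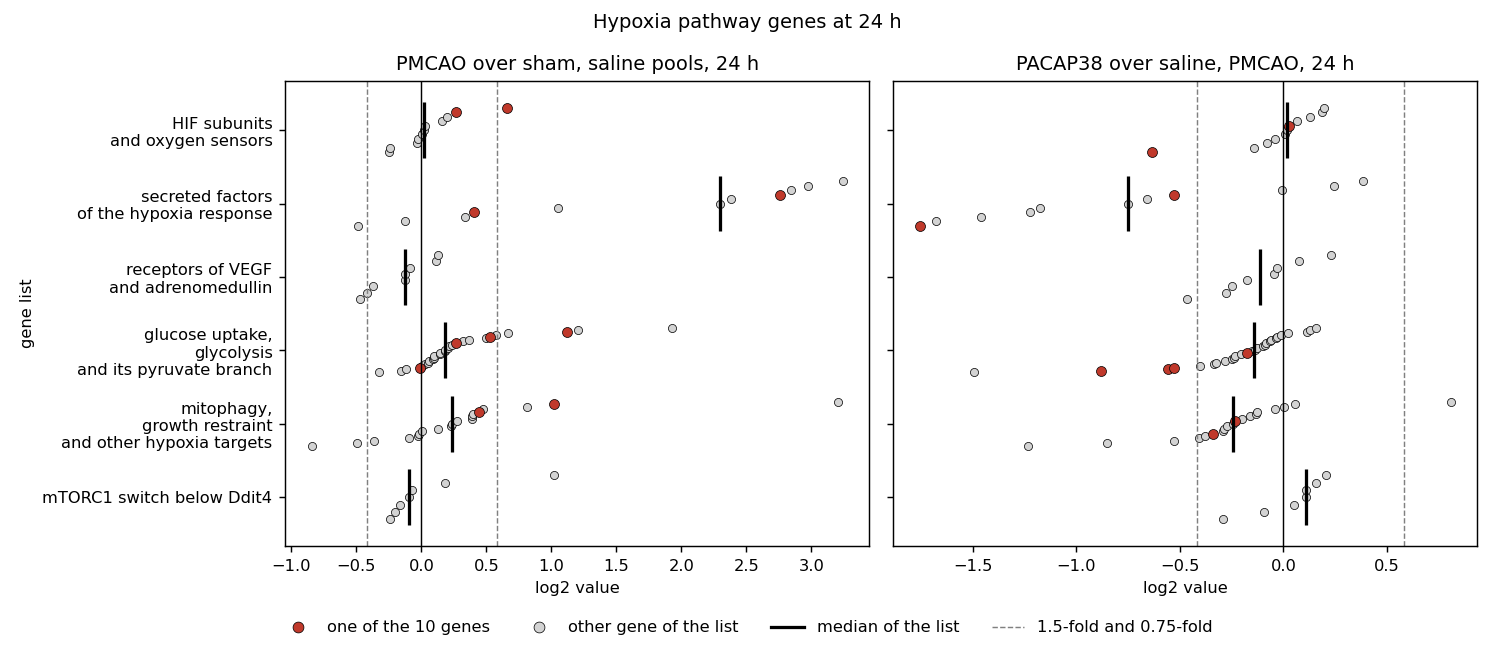
Log2 values (horizontal axis) of the genes well above background in 6 pathway lists (vertical axis) at 24 h, for PMCAO over sham in the saline pools on the left and for PACAP38 over saline in PMCAO on the right, with the 10 genes in red, other genes in grey, list medians as bars and dashed lines at 1.5-fold and 0.75-fold. Secreted factors have medians of 2.30 and -0.75, and the other lists have medians between -0.12 and 0.23 on the left and between -0.24 and 0.11 on the right.

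Over the 8 pools, the genes outside these lists with the levels most like those of *Adm* were *Hmgb2* (Pearson r = 0.991), *Hilpda* (0.990) and *Plscr1* (0.980), among 16019 probes well above background in every channel. *Hmgb2* encodes a chromatin protein, *Hilpda* a lipid droplet protein and *Plscr1* a scramblase of membrane lipids. Their PACAP38 ratios in PMCAO at 24 h were -1.09, -0.92 and -0.62. For *Vegfa* they were *Insig1* (0.972), a regulator of sterol synthesis, *Carm1* (0.969), an arginine methyltransferase, and *Scd1* (0.966), a fatty acid desaturase, with ratios of -0.56, -0.62 and -0.23. The pools share arrays in pairs, and these correlations describe 8 points that also differ by time and slide, as *Adm* was higher in the sham pools of 6 h (-0.66 and -0.75) than in those of 24 h (-1.94 and -1.95).

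Markers of other cells moved with the values of PMCAO at 24 h. Neutrophil markers were measured by 2 of 6 genes on the array, with *Camp* and *Elane* well above background in no channel, and their summed level relative to the 75th percentile was 0.713 to 1.1 in sham, 49.7 in PMCAO with saline and 5.88 in PMCAO with PACAP38. Endothelial markers (6 of 6) summed to 8.08 and 9.81 in sham, 13.6 in PMCAO with saline and 9.42 in PMCAO with PACAP38, and 4 of 6 lay below 0.75-fold with PACAP38. Pericyte markers (4 of 4) summed to 6.43 to 6.45, 8.29 and 6.68. Striatal markers (6 of 6) summed to 19.1 to 19.3, 9.46 and 14.9. Olfactory bulb markers (2 of 3) summed to 0.317 to 0.506, 1.75 and 0.279. The paper states that the olfactory bulb and cerebellum were left out, and differences in dissection between the pools were not tested. Oligodendrocyte markers (5 of 5) summed to 160 to 165, 185 and 134, neuron markers (7 of 7) to 160.0 to 160.2, 142 and 149, and astrocyte markers (5 of 6) to 38.6 to 39.3, 47.5 and 44.9. Markers of microglia (6 of 6) summed to 8.15 to 8.59, 6.61 and 6.19, erythrocytes (3 of 3) to 57.8 to 66.8, 75.9 and 59.5, choroid plexus (5 of 5) to 8.07 to 9.21, 9.43 and 7.49, cerebellar granule cells (2 of 4) to 3.67 to 3.91, 4.98 and 3.78, and pituitary (4 of 5) to 1.41 to 1.6, 1.46 and 1.38. The pituitary sum hid opposite differences of single hormones, since the log2 ratio of PACAP38 over saline at 24 h was -5.10 in PMCAO and -3.52 in sham for *Prl* (prolactin), and 1.78 and 2.65 for *Cga* (the shared subunit of the glycoprotein hormones). The microglia and endothelial sums also held members that went opposite ways. PMCAO over sham in the saline pools at 24 h ran from -1.89 (*P2ry12*) to 1.22 (*Cd68*) for microglia, and from -0.85 (*Tek*) to 1.90 (*Cdh5*) for endothelium. The PACAP38 ratios in PMCAO at 24 h ran from -0.67 (*Itgam*) to 0.45 (*P2ry12*), and from -1.37 (*Cdh5*) to 0.24 (*Tek*). Other lists also held members on both sides of 0. PMCAO over sham in the saline pools at 24 h ran from -0.31 (*Aqp4*) to 1.13 (*Gfap*) for astrocytes. For pericytes it ran from -0.29 (*Rgs5*) to 0.95 (*Kcnj8*), and for choroid plexus from -0.65 (*Kcne2*) to 0.26 (*Clic6*). For granule cells it was -0.62 for *Neurod1* and 0.37 for *Cbln1*. The 4 check genes of the ischemic response were below 0.75-fold with PACAP38 in PMCAO at 24 h as well, with a median of -1.20. The part of these cells in the ratios of the 10 genes was not tested, and in a hemisphere fewer cells of a type and less RNA per cell cannot be told apart.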

How the data were processed

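RNA of the ipsilateral hemisphere was measured on 8 two-colour arrays, which make 4 comparisons of PACAP38 over saline. The authors pooled 300 ng of RNA from each of 3 mice, labeled 900 ng and deposited the scanner output of Feature Extraction (versions 9.5.1.1 and 9.5.3.1 for the earlier and later time per the file headers). The deposited log10 ratio is Cy5 over Cy3, background-subtracted and dye-normalized in the scanner program. Intensity values were deposited as mean, background and processed signals. A second table deposited by the authors gives the ratio Cy5 over Cy3, in which values of arrays with PACAP38 in Cy3 are scores, the ratio with a minus sign. In size, the values of this table differed from the ratio of the deposited processed signals, Cy5 over Cy3, by at most 0.005. Deposited flags, also used as scores, give outliers and signals well above background.

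Ratios were put on the log2 scale and turned where PACAP38 was in Cy3. Control and outlier spots were left out, spots of a probe averaged, and the 2 arrays of a comparison averaged as 1 replicate, using 1 array for a gene of interest where the other had no value. Shares over all probes need both arrays, and those well above background are so on both arrays in at least 1 of the groups compared. By the labels the arrays are numbered pools, but the methods describe 1 RNA labeled with either dye. PMCAO over sham is the difference of processed signals, each minus the 75th percentile of its channel. The thresholds were 1.5-fold and 0.75-fold, with no test within a comparison. Across the 4 comparisons limma 3.58.1 (R 4.3.3) was used, with time as a random block for PMCAO over sham (correlation 0.696). The arrays limit precision by their number. The limma fits were tested on simulated data with 200 changed probes and noise independent between the pairs of pools.

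The 10 genes and the gene lists were chosen with earlier results of these data known. Genes named from a list had the highest or lowest mean PMCAO over sham, or the PACAP38 ratio farthest from 0, and other members are named where a count is small. One gene that this rule names is not reported here. Symbols were updated through RefSeq for 22951 of 41174 probes. Same-numbered arrays share a dye orientation, and their deviations correlated at 0.232 to 0.639, while the turned arrays of one comparison correlated at -0.417 to 0.053 over all probes. Alternatives were normexp (offset 50) with loess and Aquantile, the deposited table, single arrays, the mean of all probes, filters, thresholds, scaling and blocks. Python 3.11.15 was used with pandas 2.3.3, numpy 2.4.6 and matplotlib 3.10.9. For 3 arrays a second, identical copy was not used.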

Additional observations from a re-analysis of the deposited data

Results flagged for a closer look

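The pair of arrays of one comparison pointed one way and the pair of another the opposite way for several genes. These differences were not tested, since each comparison is 1 pair of pools. In PMCAO the PACAP38 over saline ratio was above 0 on both arrays at 6 h and below 0 on both at 24 h for *Adm*, a difference of -2.28 on the log2 scale, *Pfkfb3* (-1.04), *Egln3* (-0.87) and *Vegfa* (-0.78). At 24 h PMCAO over sham was above 0 in the saline pools and below 0 in the PACAP38 pools for *Pfkfb3* (a difference of -0.85), *Vegfa* (-0.55) and *Ldha* (-0.55). These 3 values hold the same signals as the PACAP38 ratios of PMCAO and sham at 24 h.

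PMCAO over sham was below 0 at 6 h and above 0 at 24 h in the saline pools for *Hif1a* (24 h minus 6 h, 1.34), *Egln3* (1.30) and *Bnip3* (0.98), and in the PACAP38 pools for *Hif1a* (0.84) and *Bnip3* (0.64). In the PACAP38 pools *Vegfa* was above 0 at 6 h and below 0 at 24 h (-0.99). The 6 h value of *Hif1a* in the saline pools was -0.91 on the first array alone and -1.08 over both. The size of the other 6 h values rests on the second sham array, and time and slide cannot be told apart.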

How the results depend on the processing

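Values past a threshold were recomputed under other settings. For PACAP38 over saline 0 of 24 turned sign under settings that keep both arrays and 0 of 12 on single arrays, and for PMCAO over sham 4 of 64 and 3 of 32 did, all at 6 h. Several of these settings could hardly change a value. The deposited table holds nearly the same ratios, and kept outlier spots matter only where a spot was flagged. The mean of all probes equals the main value for a gene with 1 probe. The values were also picked by the threshold on the same arrays, so these counts are not separate support. Of all values of the genes, small ones included, 11 of 156 and 20 of 77 turned sign for PACAP38 over saline, and 16 of 152 and 8 of 74 for PMCAO over sham. Leaving out either array gave *Ldha* -2.0 to 0.12 in the saline pools and -2.29 to 0.33 in the PACAP38 pools and *Egln3* -1.01 to 0.12 in the PACAP38 pools, the mean of both probes gave *Ldha* 0.36 and 0.33, and normexp, loess and Aquantile gave *Bnip3* 0.13 and 0.11. The count of 6 genes below 0.75-fold in PMCAO at 24 h was 3 at 1.5-fold either way and 3 past the threshold on each array, and leaving out either array gave 3 to 7. Leaving out an array gave 0 to 1 genes above and 0 to 1 below in PMCAO at 6 h, and 0 to 1 below in sham at 24 h. For PMCAO over sham it gave 1 gene above and 1 to 6 below in the saline pools at 6 h, 1 above and 0 to 4 below in the PACAP38 pools at 6 h, and 0 to 1 below in the PACAP38 pools at 24 h. In the saline pools at 24 h *Pfkfb3* also passed 1.5-fold on the second arrays alone, at 0.62 on the log2 scale. With normexp, loess and Aquantile the counts at 6 h were 2 above and 2 below in the saline pools and 2 below in the PACAP38 pools, and 1 above in the PACAP38 pools at 24 h. At 1.5-fold either way 2 were below in the PACAP38 pools at 6 h. The causes were not tested.

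The replicate number, which is the dye orientation, gave 589 probes (459 up, 130 down) for the mean of PMCAO over sham with a replicate block on single arrays, none of them of these genes, and 0 for the other tests, where it changed no call. Single arrays of a dye swap count as separate values in that fit. Only probes well above background gave 3 probes for PMCAO over sham. Leaving out 1 comparison or pair at a time left the means of PACAP38 over saline and of PMCAO over sham at 0 probes. The difference of the PACAP38 ratio was not refitted in that way. Leaving out the second sham array of 6 h (chosen after seeing the data) left all tests at 0 probes. At 6 h depth of signal limits the dim *Pfkfb3* probes.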
